A study of Mus musculus with 2 samples.

Results

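DNase-seq maps where the nuclease DNase I cuts chromatin, and the peaks described here are those at the promoters of the mouse Zfp genes, which code for zinc finger proteins. A peak was taken when its midpoint lay within 500 bases of an annotated transcript start of a protein-coding gene named Zfp followed by a number. The GENCODE M21 annotation on mm10 holds 394 such genes among 21938 protein-coding genes. The rule selected 581 of 132054 peaks in library 1 and 576 of 139799 peaks in library 2. Members were split into 246 clustered genes, whose span lay within 200 kb of another Zfp gene and which formed 53 clusters, and 148 single genes. The study holds 1 group with 2 libraries, each of left cerebral cortex tissue from female B6CASTF1/J mice aged 18 to 20 months, so no treatment or genotype is compared. B6CASTF1/J is a first-generation hybrid that carries 1 C57BL/6J and 1 CAST/EiJ chromosome set, whereas mm10 represents C57BL/6J. The libraries were made from separate biosamples that the labels tie to the same donor entry, and are called library 1 and library 2 by their biological replicate numbers.

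Most Zfp proteins bind DNA through arrays of C2H2 fingers, in which pairs of cysteines and histidines hold a zinc ion. Many also carry a KRAB domain, which recruits the corepressor Trim28 and with it the histone methyltransferase Setdb1 and heterochromatin proteins, and KRAB zinc finger proteins are best known for silencing transposable elements. The family grew by tandem duplication, so that its genes often lie in clusters of similar copies. A few Zfp genes code for other proteins, such as the CCCH-type RNA-binding proteins of the Zfp36 group.

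The first 4 sequences are examples of strong and weak Zfp promoters, 2 from the 10 strongest and 2 from the 10 weakest. Each is the longest run of the shared part of both libraries' peaks that no annotated exon touches, read 5′ to 3′ on the gene's strand from mm10, with capitals for bases inside a footprint of both libraries. A footprint is a short run protected from cutting within an open region. Zfp654 (chr16:64851721-64851995, minus strand) has 111 footprint bases among the 275 shown, and Zfp41 (chr15:75616441-75616678, plus strand) has 68 among 238. Zfp488 (chr14:33978822-33979003, minus strand) has 5 among 182, and Zfp185 (chrX:72987181-72987319, plus strand) has 0 among 139. Members with too short a run were passed over, so the strongest, Zfp143, and the weakest, Zfp947, are not shown. Zfp706, also strong and not shown, had 62 footprint bases among 120. Footprint coverage follows the signal at all promoter peaks, as given below, so this contrast is not particular to these genes.
Zfp654: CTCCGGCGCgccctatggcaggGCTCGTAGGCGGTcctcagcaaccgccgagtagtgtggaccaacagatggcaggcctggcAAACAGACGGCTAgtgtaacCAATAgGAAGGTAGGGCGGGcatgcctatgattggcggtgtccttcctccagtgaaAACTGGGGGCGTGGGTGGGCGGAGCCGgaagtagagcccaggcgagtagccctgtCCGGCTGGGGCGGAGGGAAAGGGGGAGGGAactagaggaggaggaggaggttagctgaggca
Zfp41: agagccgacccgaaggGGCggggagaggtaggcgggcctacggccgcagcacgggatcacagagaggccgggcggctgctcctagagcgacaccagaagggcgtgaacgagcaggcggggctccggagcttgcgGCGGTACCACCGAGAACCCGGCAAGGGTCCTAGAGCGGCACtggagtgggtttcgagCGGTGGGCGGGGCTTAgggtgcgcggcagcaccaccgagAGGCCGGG
Zfp488: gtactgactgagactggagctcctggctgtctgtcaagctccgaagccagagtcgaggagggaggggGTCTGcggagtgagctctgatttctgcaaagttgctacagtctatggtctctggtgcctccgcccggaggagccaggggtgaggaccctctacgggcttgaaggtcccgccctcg
Zfp185: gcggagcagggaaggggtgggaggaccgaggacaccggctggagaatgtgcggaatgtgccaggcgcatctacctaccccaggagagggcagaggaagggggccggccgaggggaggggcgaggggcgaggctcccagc

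Some members without a peak have near-identical promoters, and 3 stretches of 150 bases before the most upstream start show this for the chromosome 2 and chromosome 4 blocks described below. Of the 28 genes there, 14 were at least 80% identical to another over these bases, and 1 of the 14, Zfp989, had a peak, in library 2. The remaining genes include Zfp933, Zfp984, Zfp970, Zfp971 and Zfp931, each with a peak in at least 1 library. Bases were compared position by position without gaps, so similar promoters that are shifted against each other could be missed. The stretch of Zfp965 (chr2:175469835-175469984, plus strand) was identical to that of Zfp973, and that of Zfp968 differed from it at 1 base. In a second family, Zfp534 (chr4:147702554-147702703, minus strand) differed from Zfp988 (chr4:147305524-147305673, plus strand) at 6 of 150 bases, which are in capitals in the line for Zfp534. None of Zfp965, Zfp973, Zfp968, Zfp534 and Zfp988, which were chosen after their values were seen, had a promoter peak in either library.
Zfp965: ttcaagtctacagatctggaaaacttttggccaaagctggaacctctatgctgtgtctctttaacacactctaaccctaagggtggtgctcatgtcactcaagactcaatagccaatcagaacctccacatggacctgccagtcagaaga
Zfp988: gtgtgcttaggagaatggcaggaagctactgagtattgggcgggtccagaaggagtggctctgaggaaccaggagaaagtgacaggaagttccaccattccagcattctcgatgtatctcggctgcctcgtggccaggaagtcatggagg
Zfp534: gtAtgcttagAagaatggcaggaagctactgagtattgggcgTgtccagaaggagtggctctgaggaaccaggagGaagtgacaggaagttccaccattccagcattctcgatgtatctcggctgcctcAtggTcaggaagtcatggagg

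Zfp promoters were open in cortex more often than the average promoter. A promoter peak was present at 343 of 394 Zfp genes in library 1, at 348 in library 2 and at 341 in both, or 86.5% (exact binomial 95% interval 82.8 to 89.8%, which covers counting error only). Over all protein-coding genes, 64.0% had a promoter peak in library 1, 65.9% in library 2 and 63.0% in both. Single genes had a peak in both libraries in 131 of 148 cases (88.5%, interval 82.2 to 93.2%) and clustered genes in 210 of 246 (85.4%, interval 80.3 to 89.5%), so these intervals overlap. Another 2 members had a peak in library 1 only, 7 in library 2 only and 44 in neither. With 1 group and no contrast there is no test, and the shares are descriptions of these libraries.

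The 53 members without a peak in both libraries were unevenly placed. A block on chromosome 4 (chr4:145510759-147848366) holds 18 Zfp genes, each with a KRAB-like string in its protein, and Zfp933 alone had a peak in both libraries. A block on chromosome 2 (chr2:175372436-178078476) holds 10 more, and Zfp971 alone had one in both, at a signal of 0.789 in library 1 and 0.956 in library 2. These 28 genes supplied 26 of the 53. Outside the blocks, which were marked off after the values were seen, 339 of 366 members had a peak in both libraries (92.6%), with 208 of 221 clustered genes (94.1%) and 131 of 145 single genes (90.3%). Zfp933 had a signal of 2.44 in library 1 and 1.81 in library 2. Zfp989 and Zfp984 in the chromosome 4 block had a peak in library 2 only, at signals of 0.327 and 0.271. In the chromosome 2 block, Zfp970 had one in library 2 only, at 0.598, and Zfp931 in library 1 only, at 0.463.

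Most promoters in these blocks recur in the genome. Uniqueness was measured as the share of 31-base words within 500 bases of the gene's main start that occur once in the assembly. The median share was 18.6% in the chromosome 4 block and 0% in the chromosome 2 block, where a word occurred 12 times at the median gene. Zfp933, the open gene on chromosome 4, had 99.6% unique words, and Zfp971 on chromosome 2 had 31.6%, the highest share in its block. Among all members, 0 of 17 genes with under 10% unique words had a peak in both libraries (interval 0 to 19.5%). The count was 17 of 32 (53.1%) between 10 and 50%, 49 of 55 (89.1%) between 50 and 90%, and 275 of 290 (94.8%) from 90% upward. All protein-coding genes followed the same order, with 2.44%, 16.5%, 38.1% and 70.9% in these bins. Within each bin from 10% upward the Zfp share was above that of all genes, and from 90% upward it was 155 of 158 clustered genes (98.1%, interval 94.6 to 99.6%) and 120 of 132 single genes (90.9%, interval 84.7 to 95.2%). The labels and readme files do not say how reads that match several places were handled, and the part of uniqueness in the missing peaks was not tested.

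**Figure D1:**
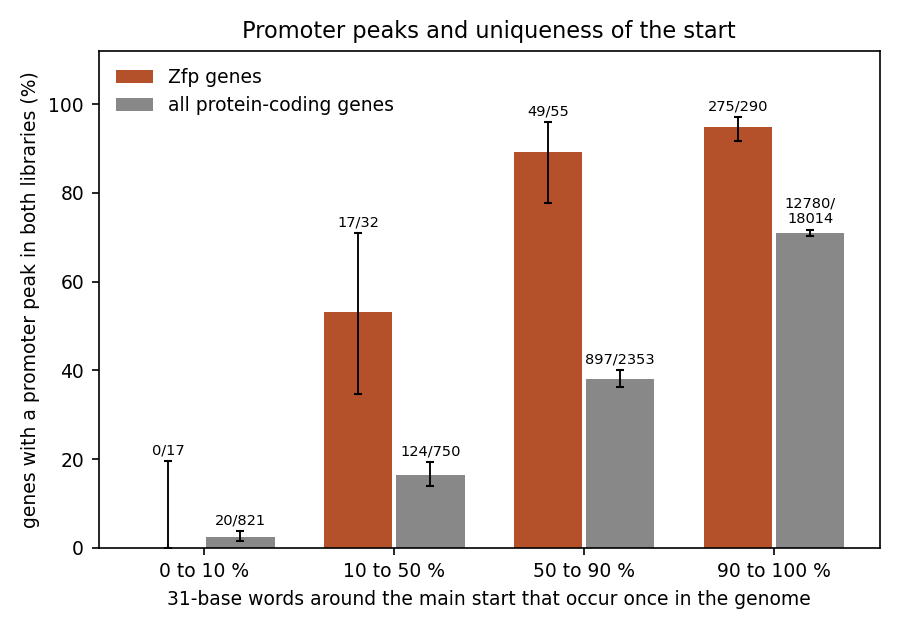
Share of genes open in both libraries (vertical axis, percent) by the share of 31-base words around the main start that occur once in the genome (horizontal axis), for Zfp genes and all protein-coding genes, with exact binomial 95% intervals as bars. Zfp genes go from 0 of 17 in the lowest bin to 275 of 290 in the highest, and all genes from 2.44% to 70.9%.

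Of the members without a peak in both libraries, 15 had 90% or more unique words, 12 of them single genes. They include Zfp296 and Zfp42, the latter a marker of pluripotent cells also called Rex1, and Zfp366 and Zfp683, known from dendritic cells and lymphocytes. None of these 4 had a promoter peak in either library. The others with a peak in neither were Zfp648, Zfp663, Zfp831, Zfp735, Zfp385c, Zfp474 and Zfp36l3. In 4 genes the libraries differed. Zfp853 had a peak in library 2 only, at a signal of 0.678, as did Zfp423 at 0.641 and Zfp503 at 0.444, while Zfp541 had one in library 1 only, at 0.333. These 4 signals all lie below 1.67, the lower quartile of all open genes.

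Clusters other than those blocks were open nearly throughout. Of the 53 clusters, 36 had a peak in both libraries at each member, and these hold 173 genes. The largest, on chromosome 13 (chr13:67038596-67827002), had 23 of 23, with mean signals from 0.794 at Zfp459 to 4.75 at Zfp87 and a median of 3.07. On chromosome 7, 15 of 15 genes (chr7:29768552-30169750) ran from 1.52 at Zfp27 to 5.43 at Zfp14, and 12 of 12 (chr7:24081924-24587641) from 1.38 at Zfp114 to 6.75 at Zfp94. On chromosome 17, 18 of 18 genes were open (chr17:21383748-22456689), but 17 of the 18 were below the median of all protein-coding genes. That cluster had a median of 1.5, from 0.316 at Zfp947 to 5.62 at Zfp994. A second chromosome 17 cluster (chr17:32765496-33394641) had 10 of 12, the exceptions being Zfp955a and Zfp955b, whose promoters held no unique word.

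**Figure D2:**
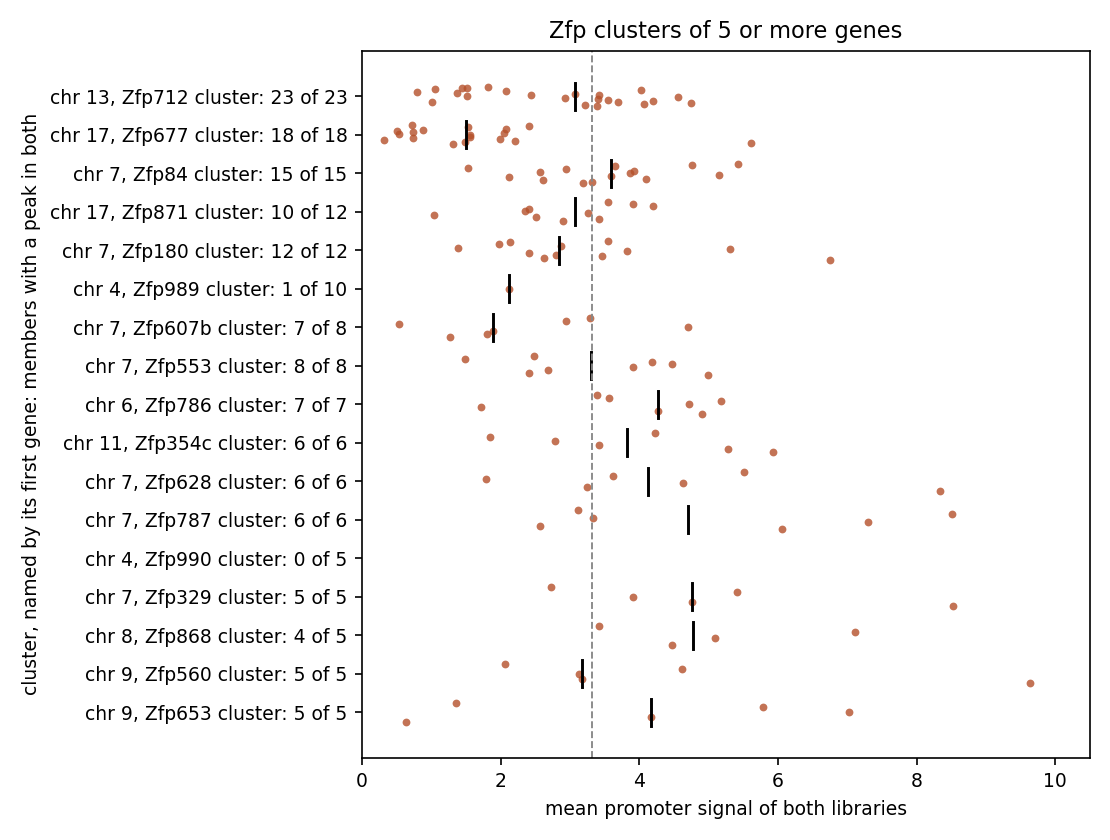
Mean promoter signal of both libraries (horizontal axis) for each member of the 17 clusters of 5 or more Zfp genes (rows, named by chromosome and first gene, with the count of members that have a peak in both). Points are genes, black bars are cluster medians and the dashed line is the median of all protein-coding genes, 3.32. The chromosome 17 row with 18 of 18 genes sits mostly left of the line, and both chromosome 4 rows are nearly empty.

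The signal is the authors' value for each peak, given without a stated normalization, and the strongest promoter peak stood for each gene. In tissue, strong opening in few cells and weak opening in many cannot be told apart. Over the 341 members with a peak in both libraries, the median was 2.99 in library 1 and 3.33 in library 2, and 3.24 for the mean of both (SD between the library medians 0.242, n = 2). The same median over 13821 protein-coding genes was 3.32. Within each library the Zfp median lay below that of all genes by a like amount, with 2.99 beside 3.13 in library 1 and 3.33 beside 3.47 in library 2. Of the 341 members, 59 (17.3%) lay above 5.23, the upper quartile of all open genes, and 76 (22.3%) at or below the lower quartile of 1.67.

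The strongest Zfp promoter was that of Zfp143 itself (chr7:110061217-110095394), which codes for an activator of many housekeeping promoters. Its signal was 11.5 in library 1 and 10.03 in library 2, a mean of 10.8 ± 1.05 (SD, n = 2). Next came Zfp654 with 11.2 and 9.63, Zfp846 with 10.2 and 9.04, and Zfp706 with 9.15 and 8.47. Zfp446, Zfp444, Zfp865, Zfp277, Zfp687 and Zfp41 completed the 10 highest, with means from 8.53 to 7.76. Neighbours in this order mostly differed by less than the SD between libraries. Of these 10, 9 lack the KRAB-like string, Zfp846 being the exception, and 6 are single genes. Among all 341 open members, 163 lack the string and 131 are single. Zfp654 shares its upstream region with Cggbp1, whose start lies 344 bases away on the other strand, and Zfp277 lies 50 bases from Dock4 in the same arrangement.

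At the weak end, Zfp947 had signals of 0.231 and 0.401, a mean of 0.316 ± 0.120 (SD, n = 2). Zfp185, which has no C2H2 string and codes for a LIM domain protein, had 0.374 and 0.302. Zfp488, a regulator of oligodendrocytes, had 0.415 and 0.438. Zfp92, Zfp677, Zfp607a, Zfp820, Zfp618, Zfp872 and Zfp57 followed, with means from 0.466 to 0.640. Of these 10 lowest, 6 have the KRAB-like string and 6 are clustered. Both counts are near the shares of all 341 open members, of which 178 have the string and 210 are clustered.

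Members with known roles spanned the range. Over all Zfp genes 86.5%, and over all protein-coding genes 63.0%, had a peak in both libraries. Among 12 genes with neural roles, 10 did (83.3%, interval 51.6 to 97.9%), and 7 of the 10 were below the median of all genes. Zfp703 and Zfp24 had the highest means in that list, at 5.72 ± 0.580 and 5.57 ± 0.279 (SD, n = 2). Zfp335, needed for neural progenitors, had 3.24 in library 1 and 4.27 in library 2. Zfp462 had 1.08 and 1.53, Zfp521 had 1.4 and 1.65, Zfp536 had 1.26 and 1.79, and Zfp804a had 1.35 and 1.56. The means of these last 4 ran from 1.31 to 1.52, closer together than the SD of 0.316 between the libraries at Zfp462.

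Of 8 genes tied to silencing, imprinting or pluripotency, 6 had a peak in both libraries (75%, interval 34.9 to 96.8%). The shares were 86.5% over Zfp genes and 63.0% over all genes. Zfp809, which silences retroviruses in embryonic stem cells, was strongest, with 7.08 in library 1 and 6.99 in library 2. Zfp281 had 5.61 and 5.49, Zfp568 had 3.31 and 3.88, and Zfp445, a guardian of imprints, had 2.16 and 1.97. Zfp708 had 1.45 and 1.58. Zfp57, which protects imprints in the early embryo, was weak, at 0.633 and 0.647. These values order Zfp809 above Zfp281 and both above the others in either library, with no overlap.

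Among 5 genes known from other tissues, Zfp750, a regulator of epidermal differentiation, alone had a peak in both libraries, at 0.585 and 0.845. That is 20% of the list (interval 0.505 to 71.6%), beside 86.5% of Zfp genes and 63.0% of all genes. Of the 4 CCCH-type genes, Zfp36 had 2.35 and 1.65, Zfp36l2 had 1.93 and 1.63, Zfp36l1 had 1.01 and 1.01, and Zfp36l3 had no peak. All 7 broadly expressed members were open (interval 59 to 100%), beside the same shares, and 6 were above the median of all genes. They ran from 0.955 at Zfp217 to 7.89 at Zfp687, with Zfp384 at 7.53, Zfp219 at 6.96 and Zfp207 at 6.74 as means of both libraries.

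The partners that KRAB proteins work through had open promoters as well. All 14 genes of that list had a peak in both libraries, beside 63.0% of all genes, and 12 were above the median of all open genes. Trim28, the corepressor bound by KRAB domains, had 4.23 in library 1 and 4.74 in library 2. Setdb1 had 4.09 and 5.08, Mphosph8 of the HUSH silencing complex had 9.17 and 9.28, and Dnmt3a had 1.60 and 2.25. In other zinc finger families, 38 of 41 Zbtb genes (92.7%, interval 80.1 to 98.5%), 10 of 11 Zkscan genes (90.9%, interval 58.7 to 99.8%) and 9 of 19 Zscan genes (47.4%, interval 24.4 to 71.1%) were open in both, beside the same 63.0%. As a check of the tissue, 9 of 10 forebrain neuron markers were open in both libraries, with Bcl11b the exception. Of these 9, 8 were below the median of all open genes, as were most neural Zfp genes, and their median signal was 1.76. Of 10 genes of liver, heart, epidermis and blood, Myl2 alone was open in both.

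Both libraries ranked the members alike. The median log2 ratio of library 2 over library 1 was 0.08 over 341 Zfp genes (SD 0.27), with extremes of -0.63 and 1.01, and 0.12 over all genes (SD 0.29). A single member differed by over 2-fold, Zfp456, with 0.701 in library 1 and 1.41 in library 2. Of all genes, 0.687% did so. Spearman's rho across the members was 0.964 as a description, over promoters of the same tissue and donor entry. The ratio moved with the level. Members with a mean signal under 1 had a median log2 ratio of 0.45 (n = 22), and members at 5 or more had -0.03 (n = 68), while the corresponding values over all genes were 0.24 and -0.01. All 10 of the highest members were higher in library 1, and 9 of the 10 lowest were higher in library 2. The next largest ratios were at Zfp459 (0.91), Zfp618 (0.91), and Zfp758 and Zfp944 (0.88 each), which lie 53 bases apart on opposite strands and share 1 peak.

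**Figure D3:**
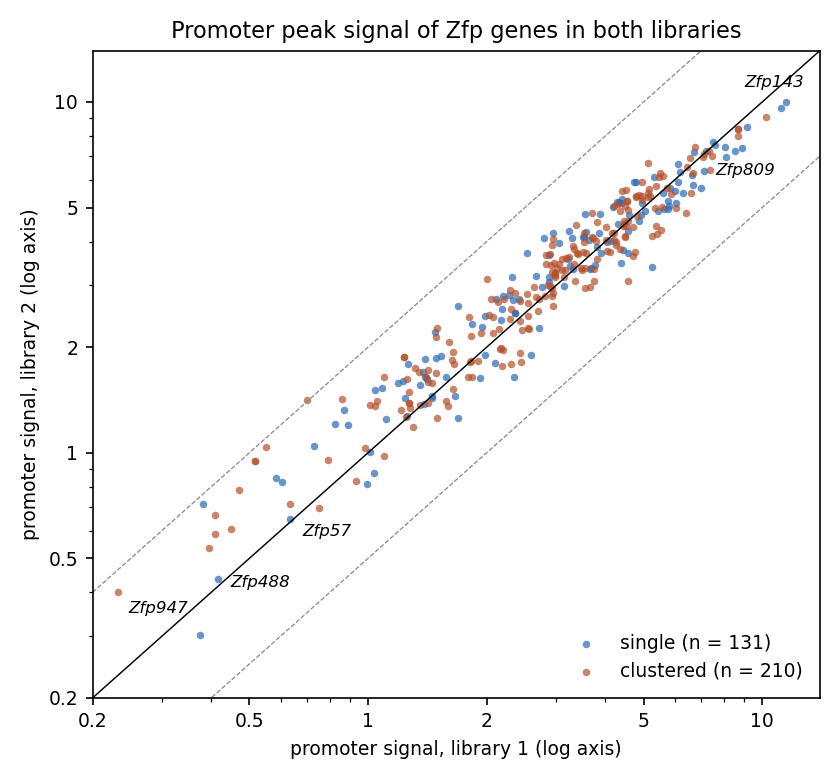
Promoter signal of each Zfp gene in library 1 (horizontal log axis) against library 2 (vertical log axis), for 131 single and 210 clustered genes with a peak in both. The solid line marks equal signal and the dashed lines a 2-fold difference. Points follow the solid line and lie above it at low signal.

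Members with and without a KRAB-like string had different promoter sequence. A KRAB-like string was found in the longest annotated protein of 215 of 394 members, in 181 of 246 clustered and 34 of 148 single genes. It is a string match that misses some known KRAB proteins, Zfp445 among them. Genes with the string had a peak in both libraries in 178 of 215 cases (82.8%) and genes without it in 163 of 179 (91.1%). All 28 genes of the chromosome 2 and chromosome 4 blocks carry the string, and without them the direction turned, at 176 of 187 (94.1%, interval 89.7 to 97%) beside 91.1% (interval 85.9 to 94.8%). The median signals with and without the string were 3.08 and 3.62 as means of both libraries. The 300-base windows centred on the strongest peaks held a median of 4.75 CpG per 100 bases with the string and 8.50 without it, beside 8.33 over all genes. The median GC content was 56.0%, 66.3% and 64.7%. CpG-poor windows were not always weak. With under 3 CpG per 100 bases, the median signal was 2.41 over 33 Zfp genes and 1.10 over 1026 protein-coding genes. With 9 or more, it was 3.56 over 90 Zfp genes and 3.76 over 6059 protein-coding genes. Of the 33 Zfp genes under 3 CpG per 100 bases, 30 were clustered. The chromosome 13 cluster of 23 genes had a median of 2.67, so many of the 33 lie in that 1 cluster.

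Across genes, as a description, Spearman's rho between CpG content and mean signal was 0.37 over 210 clustered members, -0.0044 over 131 single members and 0.22 over all open genes. Among clusters, the chromosome 13 cluster had a median of 2.67 CpG per 100 bases and a median signal of 3.07, whereas the weak chromosome 17 cluster had 4.17 CpG per 100 bases and a median signal of 1.5. A chromosome 6 cluster (chr6:47819266-48086593) had 8.33 CpG per 100 bases and a median signal of 4.27, with 7 of 7 genes open and the KRAB-like string in none. Since the string match misses some KRAB proteins, this does not show that these 7 genes lack the domain. Fewer members than other genes faced a protein-coding gene on the opposite strand within 1000 bases, at 30 of 341 (8.80%) beside 16.4% of all open genes. Those 30 had a median signal of 4.88 and the other 311 had 3.15, close to 4.89 and 2.97 over all genes of each kind.

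Footprints were present in 477 of 581 Zfp promoter peaks in library 1 (82.1%) and in 506 of 576 in library 2 (87.8%), beside 81.0% and 83.4% of all promoter peaks. They covered 16.9% and 17.9% of the Zfp peak bases, and 16.1% and 16.3% over all promoter peaks. Coverage followed the signal. In library 1, footprints covered 2.48% of the bases of Zfp peaks with a signal under 0.5 and 31.4% at 4 or more, and in library 2 4.04% and 31.7%. All promoter peaks had 3.56% and 33.7% in library 1. The strongest peak of Zfp143 overlapped 8 footprints in library 1 and 6 in library 2, and that of Zfp947 overlapped 0 and 2. Library 2 also has more footprints in all, at 323715 beside 271439.

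**Figure D4:**
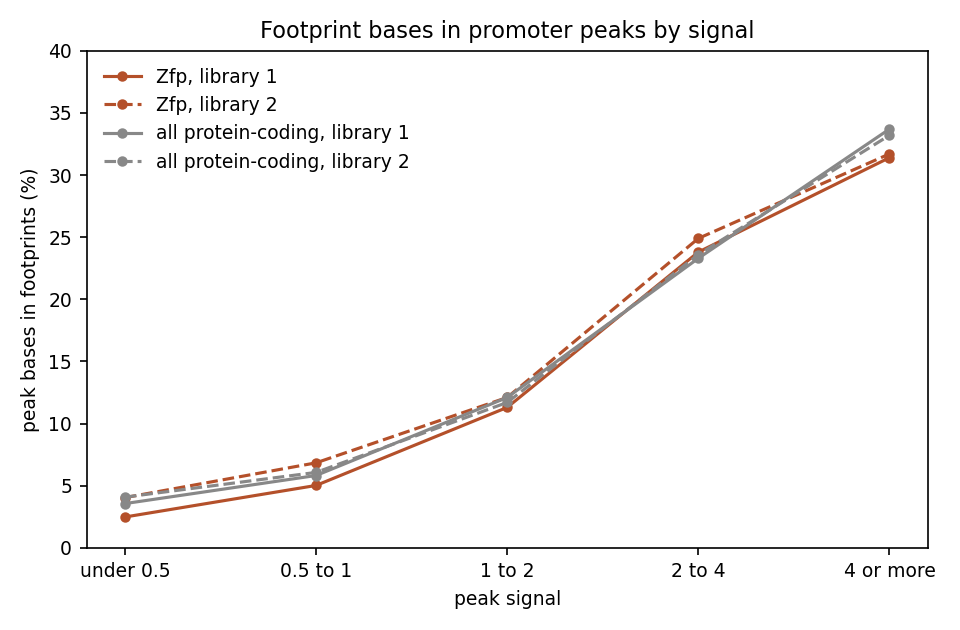
Share of promoter peak bases inside footprints (vertical axis, percent) by peak signal (horizontal axis), for Zfp peaks and all protein-coding promoter peaks in library 1 (solid) and library 2 (dashed). The lines of Zfp and all peaks run together, from under 5% at a signal under 0.5 to over 30% at 4 or more.

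Short motifs were counted in the 300-base windows on both strands, over 339 distinct Zfp windows of 12876 in library 1 and 344 of 13286 in library 2. The widest gap between clustered and single genes was at the SP/KLF motif GGGGCGGG, in 29 of 207 clustered (14%) and 28.8% of single Zfp windows in library 1, beside 32.1% of all windows. Library 2 gave 12.9%, 28.4% and 31.8%. The ETS motif CCGGAAG was in 24.2% of Zfp windows and 17.3% of all in library 1, and in 23.5% and 16.8% in library 2. Unlike for the cAMP response element and NRF1 below, its matches lay in a footprint less often in Zfp windows. The shares were 22.7% beside 34.0% over all windows in library 1, and 28.9% beside 37.2% in library 2. The cAMP response element TGACGTCA was in 6.76% of clustered, 3.03% of single and 3.79% of all windows in library 1. In both libraries, 14 clustered genes carried it. Zfp457, Zfp595, Zfp953, Zfp874a, Zfp874b, Zfp87, Zfp65 and Zfp493 among them lie in the chromosome 13 cluster of 23 genes. The clustered share and the footprint counts for this motif thus lean on 1 cluster. The centre base of a CRE match lay in a footprint in 19 of 19 matches in Zfp windows in library 1 and 17 of 18 in library 2, beside 81.9% and 88.8% over all windows. The NRF1 motif GCATGCGC was in 6.19% of Zfp and 5.81% of all windows, and 37 and 38 of its 38 matches had their centre base in a footprint in library 1 and library 2, beside 82.1% and 83.8% over all windows. These 38 matches lie at 22 places in 21 genes, since the motif often matches on both strands 2 bases apart. The sets differ in base composition as given above, its part in these shares was not tested, and a match is not a site of binding. Among neuronal motifs, the E-box CAGATGG was in 3.83% of Zfp and 3.85% of all windows in library 1. MEF2 (CTAAAAATA) was in 0 Zfp windows and in 0.249% of all, too rare for the 2 sets to be told apart.

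**Figure D5:**
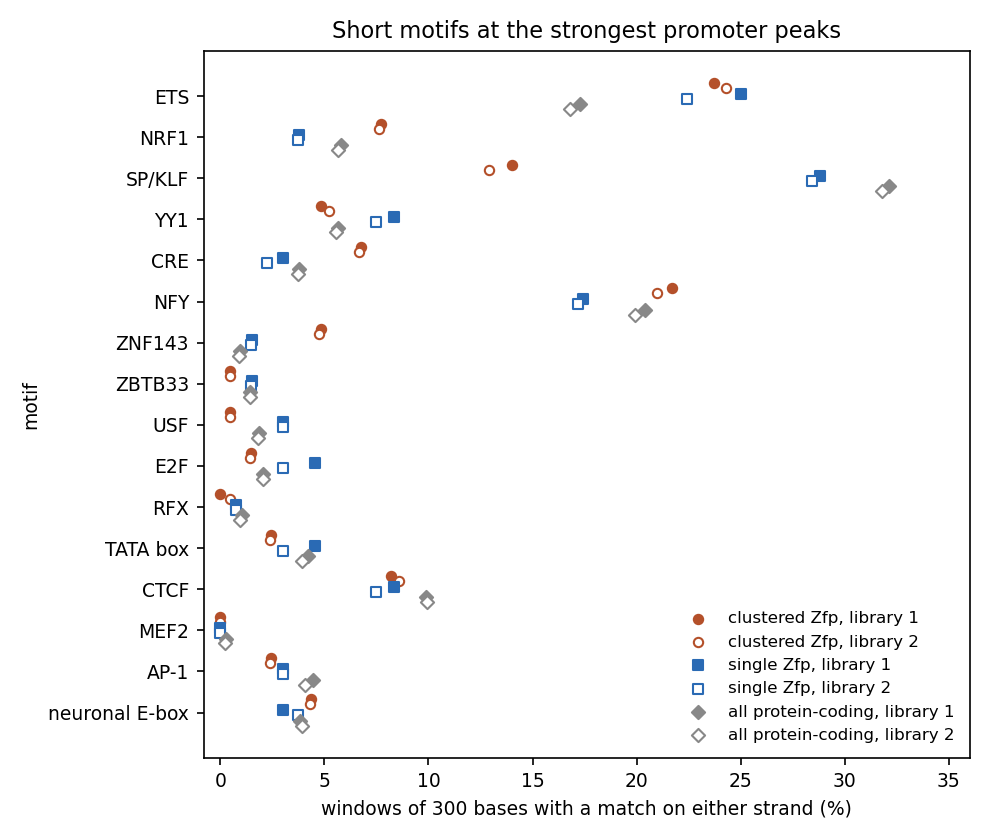
Share of 300-base windows with a match to each of 16 short motifs on either strand (horizontal axis, percent) for clustered Zfp, single Zfp and all protein-coding promoter peaks. Filled markers are library 1 and open markers library 2. SP/KLF separates clustered Zfp genes (14%) from all genes (32.1%), and ZNF143 is at 4.83% beside 0.947%.

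The ZNF143 motif ACTACAAT, bound by the protein that Zfp143 itself codes for, was in 12 Zfp windows in each library, or 3.54% beside 0.947% of all windows in library 1 and 3.49% beside 0.918% in library 2. Of the 12 genes, 10 have the KRAB-like string and 10 are clustered. In the chromosome 7 cluster at chr7:24081924-24587641, 5 of 12 genes carry it, and Zfp933, open in both libraries in the chromosome 4 block, does too. The windows were centred on peaks, so genes of that block without a peak were not searched and cannot be compared. The 12 matches are shown with 10 bases on each side, on the strand of the motif and with the motif in capitals, to show how much of the flank they share. The letters TCCC followed the motif in 11 of the 12, beside 89 of 122 matches (73.0%) with 4 bases left in the window over all genes in library 1. The longer run TCCCAG followed it in 8 of the 12. The 122 matches include those in Zfp windows, and 5 of the 12 lie in 1 cluster, so the 12 are not separate cases. The share of clustered windows with this motif leans on that cluster too.
Zfp180: gctcaatggaACTACAATtcccagaact
Zfp235: tggcgctggaACTACAATtcccagaatg
Zfp114: tggagtgggaACTACAATtcccagaatg
Zfp108: tggctccagaACTACAATtcccagaatg
Zfp93: tggcgttggaACTACAATtcccagaatt
Zfp454: tgtggccgaaACTACAATtcccagaagg
Zfp128: ggacactgagACTACAATtcccagaagg
Zfp933: tttccaaagaACTACAATtcccagcatt
Zfp692: actaaggctaACTACAATtcccggcagg
Zfp1: gaggtgtaggACTACAATtcccataatg
Zfp58: cagtggccagACTACAATtcccacaagt
Zfp169: agatgggggaACTACAATacccagaatg

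The first 5 lines are neighbours in that chromosome 7 cluster, and Zfp180 (chr7:24081868-24081895), Zfp235 (chr7:24134132-24134159), Zfp114 (chr7:24175021-24175048), Zfp108 (chr7:24254720-24254747) and Zfp93 (chr7:24270340-24270367) have the motif 42, 23, 25, 60 and 66 bases before their main start. Over all 12 matches, the centre base lay in a footprint in 8 in library 1 and 7 in library 2, beside 38.2% and 37.4% of the matches in all windows. The signals of the 5 in library 1 and library 2 were 5.2 and 5.41 at Zfp180, 4.55 and 3.09 at Zfp235, 1.27 and 1.49 at Zfp114, 3.74 and 3.35 at Zfp108, and 2.70 and 2.53 at Zfp93. Strong and weak promoters are among these 5. The 12 carriers had a median signal of 3.83, from 1.38 to 6.47, and the other open members had 3.22. Zfp454 on chromosome 11 (chr11:50887656-50887683) had 5.55 and 5.02, Zfp128 on chromosome 7 (chr7:12881156-12881183) had 5.17 and 5.65, and Zfp933 on chromosome 4 (chr4:147848433-147848460) had the values given above. Of the remaining carriers, Zfp692 had 6.68 and 6.27, Zfp1 had 4.12 and 4.01, Zfp58 had 2.98 and 3.16, and Zfp169 had 3.53 and 4.13. The 12 carriers were taken by the motif, among members with a peak in both libraries.

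Zfp peaks lay close to the starts, within the 500 bases that the rule allows, much as other promoter peaks did. Their median distance was 71 bases in library 1 and 67 in library 2, beside 82 and 84 over all protein-coding promoter peaks. Of the 581 in library 1, 343 had a midpoint within 100 bases of a start, with a median signal of 2.82. Just inside the limit, 52 peaks at 400 to 500 bases had a median signal of 0.582, and just outside it 42 peaks at 500 to 600 bases had 0.664. In library 2 the values were 0.644 for 56 peaks and 0.506 for 34. The distance that separates clustered from single genes also has close cases. Zfp986 and Zfp987 lie 197 kb apart and count as clustered, and Zfp965 and Zfp969 lie 210 kb apart and do not join. None of these 4 had a promoter peak in either library. In 300 of the 341 open members (88.0%) the strongest peak lay within 500 bases of the gene's main start in both libraries, beside 82.4% of all open genes.

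Away from starts, the clusters together held fewer peaks than the genome, but unevenly. Leaving out peaks within 500 bases of any annotated start, the 12.01 Mb spanned by the 53 clusters held 22.2 peaks per Mb in library 1 and 25.7 in library 2. Chromosomes 1 to 19 and X together held 39.8 and 42.2 per Mb. The chromosome 4 block had 5.99 and 8.56 per Mb, and the chromosome 2 block 2.59 and 2.22. In the chromosome 13 cluster, where each promoter was open, the values were 10.1 and 12.7 per Mb. In contrast, 14 of the 53 clusters in library 1 and 15 in library 2 lay above the genome's value, 13 of them in both. Among these was the chromosome 7 cluster at chr7:24081924-24587641, with 57.3 and 81.1 per Mb over a span of 0.506 Mb. Repeated sequence within the spans was not measured, and its part in these counts was not tested.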

How the data were processed

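DNase-seq libraries of 2 cortex biosamples were analysed from the deposited peak and footprint lists. Per the readme files that the authors deposited, both were made from each library's own alignments to mm10. No source used here names the aligner or caller, or gives the read depth. Column 7 of the longer peak list is a signal value set by the authors, with no stated normalization. Footprints were deposited with a constant value of 0.01, read as their q-value threshold. From these files, peaks were assigned to starts of the GENCODE M21 annotation (midpoint within 500 bases) and the strongest peak gave a gene its signal. Unique 31-base words were counted over the assembly with numba 0.67.0, a measure chosen after seeing the data. Exact binomial 95% intervals were computed with SciPy 1.17.1, and tables with pandas 2.3.3. The assignment rule was tested on simulated peaks. The members, gene lists and motifs were chosen with earlier results of these data known. Genes were named by rule: the 10 highest and 10 lowest, members of 5 lists of known roles, extremes of clusters of 5 or more genes, the 5 largest library differences, and genes with a peak in 1 or no library. Other names were chosen after their values were seen. With 1 group there is no test. Alternatives varied the peak list, the window, the start set, the name rule, the cluster distance, the signal per gene, the footprint overlap and the libraries used.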

Additional observations from a re-analysis of the deposited data

How the results depend on the processing

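Summary values (open Zfp genes in all, single and clustered, promoter peaks, median signal, peaks with a footprint and the difference by KRAB-like string) were recomputed under 15 settings, and 65 of 69 values stayed within 1.5 times the main count or, for the median signal, within 1 SD between libraries. These limits are wide. The 341 open genes of 394 could not rise to 1.5 times the main count, and a fall to 292 still counted as within it. The 65 values are thus no measure of how stable the results are. Requiring the peak to overlap the start base lowered the mean number of Zfp promoter peaks per library from 578.5 to 367. Averaging the promoter peaks of a gene gave a median signal of 2.54 in place of 3.24, and single libraries gave 2.98 and 3.30. The number of open Zfp genes ranged from 292 with an overlapping start to 345 within 2000 bases, while all genes went from 52.5% to 67.6%. Single libraries gave 343 and 348 open genes, 132 and 134 single, 211 and 214 clustered, 581 and 576 peaks, and 477 and 506 peaks with a footprint. Among settings added after seeing the data, members with 90% or more unique words kept 275 of 290 open, and leaving out both blocks kept 339 of 366. The share of open genes with the KRAB-like string minus that without it went from -8.27 percentage points to 3.06 without the blocks, which hold only genes with the string. No paired analysis was possible because the study has 1 group. The lists give no read depth, so the absence of a peak is a statement about these lists only.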
